A study of Mus musculus with 4 samples.

Results

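The genes that make bile acids from cholesterol in the liver, and the 2 nuclear receptors that restrain them, were read in the livers of 4 male mice. The 10 genes were picked by symbol: Cyp7a1, Cyp8b1, Cyp27a1, Cyp7b1, Hsd3b7, Akr1d1, Slc27a5, Baat, Nr1h4 and Nr0b2. Each matched 1 row of the count table, so they are 10 of its 46603 genes, and all 10 were among the 13001 genes that passed the filter on low counts. All 4 mice were HuR flox/flox on C57BL/6 J and had received AAV8 by tail vein. The 2 control mice (mice 1 and 2) had AAV8 with GFP, and the 2 mice labelled HuRhKO (mice 3 and 4) had AAV8 with Cre recombinase, in both cases driven by the thyroxine-binding globulin promoter, which is active in hepatocytes. All were fed a Western diet with 42% of its kcal from fat and 0.1% cholesterol, with 23.1 g/L fructose and 18.9 g/L glucose in the drinking water, for 4 weeks. The labels say that groups were matched for age but give no age, and no mice on ordinary chow are analysed here. The question was how the genes of bile acid synthesis stood in livers labelled as lacking HuR, the RNA-binding protein encoded by Elavl1.

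Bile acids are the main route by which the body disposes of cholesterol, and they also signal. In the classic pathway Cyp7a1 adds the initial hydroxyl group to cholesterol and sets the pace of synthesis, while in the alternative pathway Cyp27a1 oxidises the side chain and Cyp7b1 hydroxylates the resulting oxysterols. Hsd3b7 and Akr1d1 reshape the sterol ring, Cyp8b1 directs the product towards cholic acid, and Slc27a5 and Baat attach coenzyme A and then taurine or glycine. Bile acids bind the receptor FXR (Nr1h4), which induces the corepressor SHP (Nr0b2), and SHP in turn restrains Cyp7a1 and Cyp8b1 through the factors LRH-1 (Nr5a2) and HNF4A.

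The libraries held between 13032095 and 19715577 counts, and the deepest was mouse 4. Elavl1 (GRCm38 chr8:4285382-4325413, minus strand) had 377 and 347 counts in the control mice and 541 and 648 in the libraries labelled HuRhKO. Its level was 27.1 ± 1.74 CPM in control mice and 36.0 ± 2.36 CPM in the mice labelled HuRhKO (SD, n = 2 each), so that the groups did not overlap and the targeted gene stood higher, not lower, in the libraries labelled as its knockout. The log2 fold change was 0.41 (SE 0.135) with an adjusted p of 0.545 by edgeR's quasi-likelihood test. The count covers the whole gene and the exons removed are not stated in the labels, so this count cannot by itself check the deletion. Each direction below is therefore given for the libraries labelled HuRhKO. Of the exon bases of Elavl1, 204 lie opposite Ccl25, which had 46 and 57 counts in control mice and 33 and 50 in the libraries labelled HuRhKO. Markers of hepatocytes were abundant in all 4 livers, with 9 measured genes summing to between 66520 and 74790 CPM. CPM is a count relative to the size of its library, after adjustment of that size by a TMM factor, and n is 2 mice a group throughout.

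The 10 genes together took between 0.263% and 0.302% of the counts of a library. Per kilobase of exon, the scale on which genes can be compared, their order was led by Slc27a5 with a mean of 348 CPM per kb over the 4 mice. Hsd3b7 (204) and Cyp27a1 (193) followed, then Baat (105), Cyp8b1 (103), Cyp7b1 (66.7), Nr0b2 (59.3), Nr1h4 (55.3), Akr1d1 (48.6) and Cyp7a1 (23.2), all as mean CPM per kb. The conjugating ligase was thus the most abundant transcript of the set and the pace-setting hydroxylase the least abundant, in each of the 4 mice. Neighbours in this order had ranges that overlapped, apart from Slc27a5 against Hsd3b7, Cyp27a1 against Baat and Akr1d1 against Cyp7a1. Even Cyp7a1 stood above 86.7% of the genes tested in mean CPM per kb, and Slc27a5 above 98.5%. The lowest count of any of the 10 genes in any library was 671 (Nr0b2 in mouse 1) and the highest 16441 (Slc27a5 in mouse 4).

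**Figure D1:**
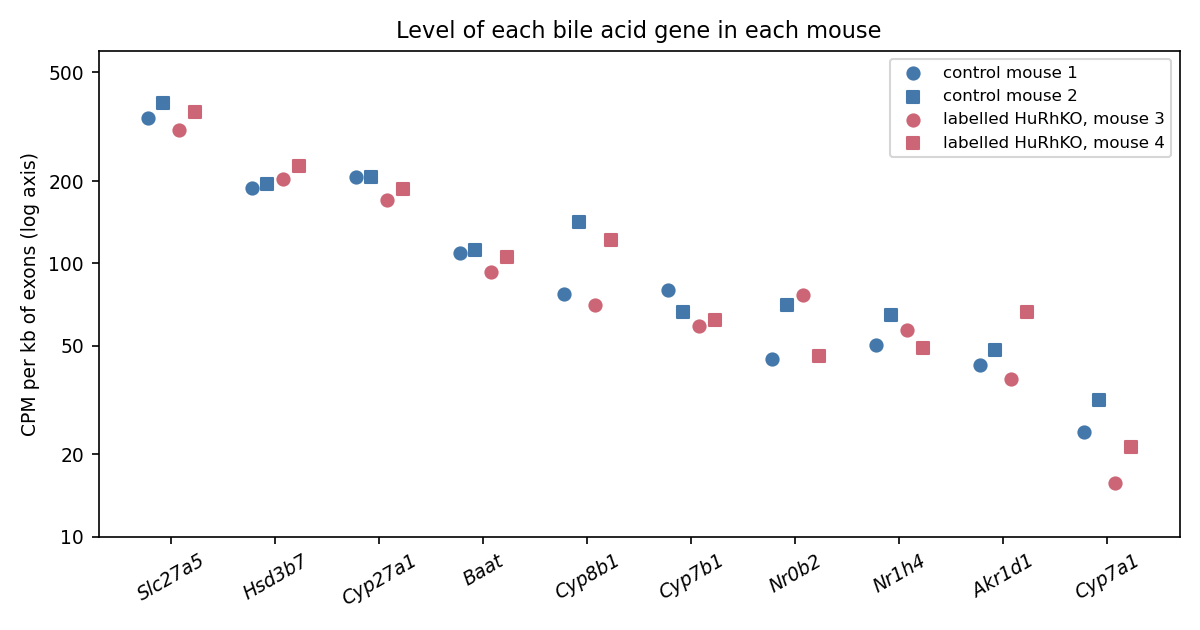
CPM per kb of exons on a log axis for each of the 10 genes (x axis, ordered by mean level) in each mouse, with blue for control, red for labelled HuRhKO, and a circle and a square for the 2 mice of a group. Slc27a5 lies on top in every mouse (308 to 387), Cyp7a1 at the bottom (15.7 to 31.5), and only Cyp7a1, Cyp27a1, Cyp7b1, Baat and Hsd3b7 have groups that do not overlap.

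Between the groups, no bile acid gene was called. At an adjusted p-value under 0.05 (edgeR's quasi-likelihood test over all genes) 0 of the 10 passed, against 3 of the 13001 genes tested, or 0.0231%. At the threshold that the study set for its gene list, a fold of at least 1.8 with an unadjusted p under 0.05, 0 of the 10 passed, against 2.12% of all genes. Without the fold, 1 of the 10 (Cyp7a1, lower) had an unadjusted p under 0.05, where 3.39% of all genes passed as lower, 4.04% as higher and 7.43% either way. The edgeR exact test, the DESeq2 Wald test and limma-voom also gave 0 genes at an adjusted p under 0.05 and 1 without adjustment.

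Fitted levels were lower than control for 7 genes and higher for 3, with a median log2 fold change of -0.14 (all genes tested: 0.002), whereas without any scaling for library size 9 of the 10 stood above control and the median of all genes was 0.31. Groups did not overlap for 4 genes on the lower side (Cyp7a1, Cyp27a1, Cyp7b1 and Baat), where 18.8% of all genes did so, and for 1 on the higher side (Hsd3b7), where 19.3% did so. Mouse 3 had the lowest CPM of the 4 mice for 7 of the 10 genes, and control mouse 2 the highest for 5, with no like count made over all genes. The 95% confidence interval of the fold change lay within a 1.8-fold change either way for 8 of the 10 genes. Cyp7a1 and Cyp8b1 were the exceptions. Of the 13001 genes tested, 8791 also had an interval within a 1.8-fold change either way.

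**Figure D2:**
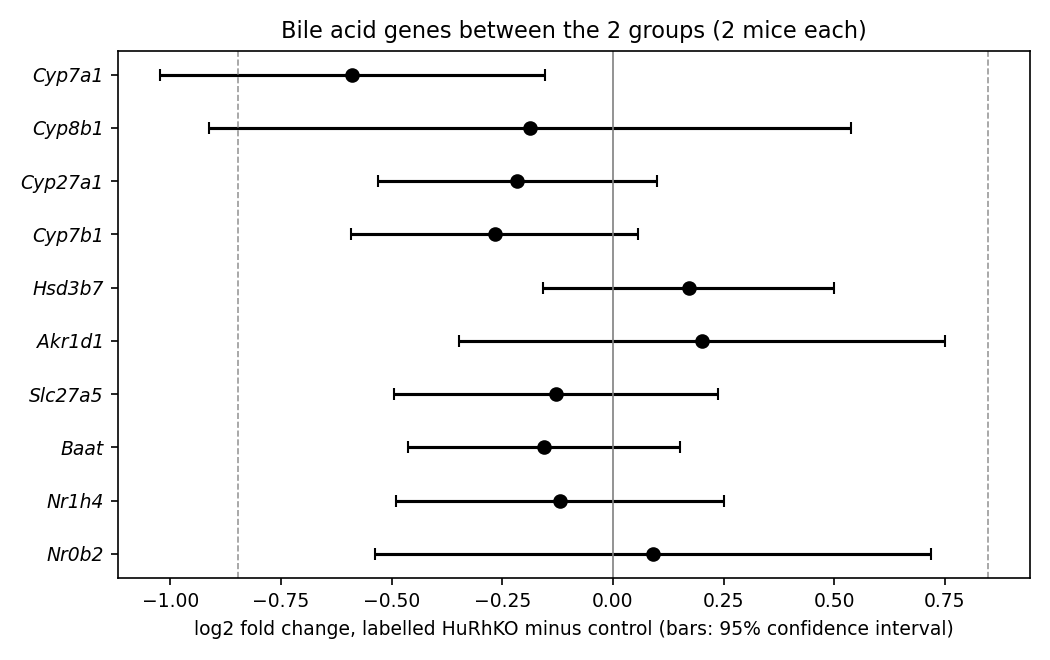
Log2 fold change of each gene, labelled HuRhKO minus control (x axis), with its 95% confidence interval from edgeR's quasi-likelihood fit on 2 mice a group, and dashed lines at a 1.8-fold change. The interval of Cyp7a1 is the only one that leaves out 0 (-1.02 to -0.15). Without scaling for library size 6 of the genes left of 0 (all but Cyp7a1) move to its right. In that setting depth is not removed, mouse 4 has the deepest library, and the median of all genes moves to 0.31 as well.

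Cyp7a1 (ENSMUSG00000028240, chr4:6265612-6275633, minus strand), the gate of the classic pathway, had 1341 and 1764 counts in control mice and 939 and 1677 in the libraries labelled HuRhKO. As CPM these were 101 and 132 against 65.4 and 88.9, so both mice labelled HuRhKO lay below both control mice, with mouse 3 the lowest. The means were 116 ± 21.7 and 77.2 ± 16.6 CPM (SD), which is 0.665 of the control level with a 95% interval of 0.492 to 0.899. The log2 fold change was -0.59 (SE 0.190), and its adjusted p of 0.530 did not pass. Within a group the 2 mice differed 1.30-fold (control) and 1.36-fold (labelled HuRhKO), against 1.504-fold between the group levels of the fit. In whole liver RNA, fewer hepatocytes and less RNA in each hepatocyte cannot be told apart. The 9 hepatocyte markers had log2 fold changes between -0.36 and 0.19, with a median of -0.06. Their part in the Cyp7a1 result was not tested.

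Cyp8b1 (chr9:121914356-121916305, minus strand), the hydroxylase that fixes the share of cholic acid, varied more between mice of 1 group than between groups. It read 151 and 276 CPM in control mice and 137 and 238 CPM in the mice labelled HuRhKO. Each group held a low and a high mouse, 1.83-fold and 1.73-fold apart, and only 4.13% and 3.95% of the genes tested had a wider gap within the same group. The log2 fold change was -0.19 (SE 0.315, 95% interval -0.91 to 0.54, adjusted p = 0.923 by edgeR), so the level could lie anywhere from 0.531 to 1.45 of control by that interval. The direction turned when mouse 2 or mouse 3 was left out, to 0.31 and 0.14.

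The enzymes of the alternative pathway varied less between mice than Cyp8b1 did. Cyp27a1 (chr1:74713574-74737892, plus strand), the mitochondrial sterol hydroxylase, read 450.7 and 450.2 CPM in control mice and 370.5 and 405 CPM in the mice labelled HuRhKO. The control mice were almost equal and both lay above the other group, at a log2 fold change of -0.22 (SE 0.137, adjusted p = 0.766 by edgeR). Cyp7b1 (chr3:18071950-18243338, minus strand), which hydroxylates oxysterols, read 172 and 143 CPM in control mice and 127 and 135 CPM in the mice labelled HuRhKO. Its groups did not overlap either, at a log2 fold change of -0.27 (SE 0.141, adjusted p = 0.709). Both intervals reached past 0, to 0.10 for Cyp27a1 and 0.06 for Cyp7b1, and both lay within a 1.8-fold change.

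The ring-modifying enzymes stood slightly above control. Hsd3b7 (chr7:127800604-127803802, plus strand), the steroid oxidoreductase that acts on hydroxylated sterols, read 523 and 539 CPM in control mice and 566 and 630 CPM in the mice labelled HuRhKO. It was the only gene of the set whose groups were apart on the higher side, at a log2 fold change of 0.17 (SE 0.143, adjusted p = 0.835 by edgeR). Its exons share 1717 bases with Gm49388 on the same strand and 1729 bases with 9430064I24Rik on the other, so reads of these genes may be counted under Hsd3b7. Akr1d1 (chr6:37530173-37568815, plus strand), the reductase that bends the ring system, read 122.5 and 139 CPM in control mice, 109 CPM in mouse 3 and 191.5 CPM in mouse 4. Mouse 4 alone stood high, 1.75-fold above mouse 3, and only 3.58% of the genes tested had a wider gap between those mice. The log2 fold change of 0.20 (SE 0.239, adjusted p = 0.884) became -0.26 without mouse 4.

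The conjugating enzymes stood slightly below control. Slc27a5 (chr7:12988346-12998192, minus strand), the bile acid coenzyme A ligase, read 831 and 943.5 CPM in control mice and 751 and 872 CPM in the mice labelled HuRhKO, with overlapping groups. Its log2 fold change was -0.13 (SE 0.159, adjusted p = 0.888 by edgeR). Baat (chr4:49489422-49506557, minus strand), which transfers the amino acid, read 212 and 217 CPM in control mice and 180.4 and 204 CPM in the mice labelled HuRhKO. The groups of Baat did not overlap, but the difference was small, at a log2 fold change of -0.16 (SE 0.133, adjusted p = 0.838).

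The groups overlapped for both regulators. Nr1h4 (chr10:89454234-89533585, minus strand), which encodes the bile acid receptor FXR, read 116 and 149 CPM in control mice and 131.5 and 113 CPM in the mice labelled HuRhKO. Its log2 fold change was -0.12 (SE 0.161, 95% interval -0.49 to 0.25, adjusted p = 0.903 by edgeR). Nr0b2 (chr4:133553376-133556536, plus strand), which encodes the corepressor SHP, read 50.4 and 79.4 CPM in control mice, 86.8 CPM in mouse 3 and 51.7 CPM in mouse 4. Like Cyp8b1, it had a low and a high mouse in each group, 1.57-fold and 1.67-fold apart, and only 8.39% and 4.75% of genes had wider gaps. The log2 fold change was 0.09 (SE 0.274, 95% interval -0.54 to 0.72, adjusted p = 0.963), and it turned to -0.21 without mouse 1 and -0.35 without mouse 3. In mouse 3 the highest Nr0b2 level stood beside the lowest Cyp7a1 and Cyp8b1 levels of the 4 mice. In control mouse 2 a high Nr0b2 level stood beside the highest levels of both hydroxylases. The relation between these levels was not tested.

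Ratios between pairs of these genes within a library need no scaling for library size. The ratio of Cyp8b1 to Cyp7a1, on CPM per kb, was 3.21 and 4.50 in control mice and 4.49 and 5.73 in the mice labelled HuRhKO, a difference of 0.42 on the log2 scale with overlapping groups (exact two-sided permutation test, p = 0.667). The ratio of Cyp7a1 to Cyp27a1, classic over alternative entry, was 0.116 and 0.152 in control mice and 0.0919 and 0.114 in the mice labelled HuRhKO. These groups did not overlap, with a log2 difference of -0.38 and an exact permutation p of 0.33, which is the smallest that 2 mice against 2 allow. The ratios of Cyp7b1 to Cyp27a1 (log2 difference -0.04, exact permutation p = 1.0), Baat to Slc27a5 (-0.03, exact p = 1.0) and Nr0b2 to Nr1h4 (0.19, exact p = 0.667) overlapped between groups. These 5 ratios were the only ones computed, and with 0.33 as the least p no adjustment over them could call any.

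**Figure D3:**
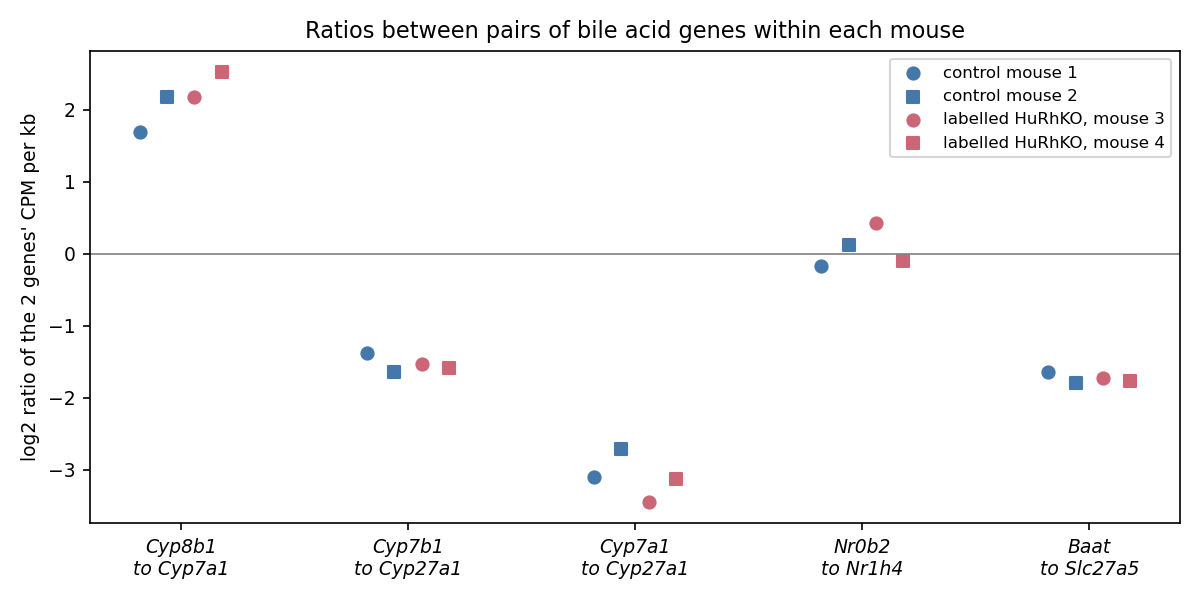
Log2 of the ratio of 2 genes' CPM per kb (y axis) for 5 pairs of bile acid genes (x axis) in each mouse, with blue for control, red for labelled HuRhKO, and a circle and a square for the 2 mice of a group. Only for Cyp7a1 to Cyp27a1 do the red points lie apart from the blue ones, and the ratio of Baat to Slc27a5 is nearly the same in all 4 mice (0.289 to 0.32).

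The bases just before the start are shown for 3 genes. Nr0b2 and Cyp8b1 had a low and a high mouse in each group, and Cyp27a1 was nearly equal in the control mice. A link between these bases and the spread between mice was not tested. Hsd3b7, whose window also held CAAGG, differed only 1.03-fold and 1.11-fold within the groups. Of the 10 genes, 6 had a promoter in the RefSeq table (GRCm38.p6). Cyp7a1, Cyp7b1, Slc27a5 and Baat had no entry. Each run is the 250 bases before the start, 5′ to 3′ on the gene's strand, with capitals marking CAAGG, the core of the LRH-1 site, or its reverse complement CCTTG.
Nr0b2 (chr4:133553126-133553375, plus strand): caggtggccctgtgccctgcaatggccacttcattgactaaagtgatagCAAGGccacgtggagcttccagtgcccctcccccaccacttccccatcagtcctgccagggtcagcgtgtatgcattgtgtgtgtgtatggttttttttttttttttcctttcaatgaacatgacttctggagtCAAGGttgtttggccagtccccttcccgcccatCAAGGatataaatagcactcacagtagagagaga
Cyp8b1 (chr9:121916306-121916555, minus strand): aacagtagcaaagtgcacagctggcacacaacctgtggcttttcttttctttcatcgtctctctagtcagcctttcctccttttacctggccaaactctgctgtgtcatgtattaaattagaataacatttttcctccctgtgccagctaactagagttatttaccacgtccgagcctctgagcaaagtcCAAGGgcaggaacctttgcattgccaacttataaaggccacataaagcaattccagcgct
Cyp27a1 (chr1:74713285-74713534, plus strand): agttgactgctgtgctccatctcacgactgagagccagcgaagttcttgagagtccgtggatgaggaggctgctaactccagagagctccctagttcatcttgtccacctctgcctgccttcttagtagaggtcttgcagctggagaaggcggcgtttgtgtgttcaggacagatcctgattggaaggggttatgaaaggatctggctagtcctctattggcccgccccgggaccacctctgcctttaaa

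CAAGG was present 3 times before Nr0b2 (from 201, 67 and 34 bases before the start), 1 time before Cyp8b1 (60 bases) and 0 times before Cyp27a1. It was also present 1 time each before Hsd3b7 and Akr1d1 and absent from the window of Nr1h4. Thus 4 of the 6 windows held it, against 46.0% of the 32851 windows in the table. The Nr1h4 window (chr10:89506659-89506908, minus strand) lies inside the gene span given above, before an internal start. Its matches do not describe the bases before the outermost start of Nr1h4. AGGTCA, the nuclear receptor motif, was present 2 times before Akr1d1, where 1 copy overlaps a CAAGG match, and 1 time before Nr1h4 (all promoters: 14.0%). Of the 6 windows, TATAAA was present before Nr0b2 and Cyp8b1 only, 28 and 31 bases before the start (all promoters: 12.4%). GTTAAT, the HNF1 motif, occurred before Nr1h4 only (all promoters: 6.43%) and CCAAT 2 times before Cyp27a1 only (all promoters: 33.8%). All motifs were searched on both strands. Matches of letters this short are a description of the windows and do not show a bound site.

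HuR binds AU-rich stretches in messenger RNAs, most often in the part after the stop codon, so the pentamer ATTTA was counted there in the GENCODE M21 transcript with the longest coding sequence. Cyp7a1 had 9 copies in 2600 bases, more than 92.9% of the 11822 genes with such a sequence (median 1). Its sequence was longer than the median of 955 bases, and its density of 3.46 per kb exceeded 85.0% of those genes (median 1.2 per kb). Cyp27a1 had 2 in 233 bases, a count above that of 54.0% of those genes and a density of 8.58 per kb that exceeded 98.5% of them. Cyp7b1 had 2 in 507 bases (3.94 per kb). Hsd3b7, Akr1d1 and Nr1h4 had 1 each, and Cyp8b1, Slc27a5, Baat and Nr0b2 had 0, where 65.4% of all genes had at least 1. The 30 bases richest in ATTTA are shown for the 2 genes with 2 copies in such a window, with ATTTA in capitals.
Cyp7a1 (chr4:6266969-6266998, minus strand, exon 6 of 6): gaaaatatATTTAtatataaattatATTTA
Cyp27a1 (chr1:74737855-74737884, plus strand, exon 9 of 9): gtccttgggtatgATTTAaaataaaATTTA

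The copies are given as sequence only, since no binding was measured in these files.

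Around the 10 genes, 58 other genes of bile acid synthesis, control and transport were listed, and 53 of them were tested. Of these, 22 had fitted levels above control and 31 below, with a median log2 fold change of -0.05, 4 had an unadjusted p under 0.05 on the higher side and 1 on the lower, and 0 had an adjusted p under 0.05 by edgeR's quasi-likelihood test. Among all genes tested these shares were 4.04% and 3.39%.

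The 19 other synthesis enzymes tested had a median log2 fold change of -0.07, with 6 above control and 13 below, and 0 passed the 1.8-fold threshold. Cyp2c70, which makes the muricholic acids of mice, read 471 and 413 CPM in control mice and 340.1 and 386 CPM in the mice labelled HuRhKO. Its groups did not overlap, but the log2 fold change of -0.28 (SE 0.148) had an adjusted p of 0.704 by edgeR. Acot8, a peroxisomal thioesterase named after its values were seen, was the only enzyme of this list with an unadjusted p under 0.05, at a log2 fold change of 0.53 (adjusted p = 0.501 by edgeR).

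The 20 other regulators tested had a median log2 fold change of 0.04, with 12 above control and 8 below, and again 0 passed the 1.8-fold threshold. Both regulators with an unadjusted p under 0.05 were higher, and both were named after their values were seen. Klb, the coreceptor through which intestinal FGF15 restrains bile acid synthesis, read 15.8 and 13.7 CPM in control mice and 20.4 and 23.5 CPM in the mice labelled HuRhKO (log2 fold change 0.58, SE 0.157, adjusted p = 0.426 by edgeR). Ppara, the fatty acid receptor, had a log2 fold change of 0.46 (adjusted p = 0.603). Nr5a2, which encodes LRH-1, and Hnf4a are the partners through which SHP acts, and stood at 0.05 and -0.06 on the log2 fold change scale, with adjusted p-values of 0.963 and 0.970 by edgeR. Both were named for that role. Cebpa, the regulator with the highest CPM per kb, had a log2 fold change of 0.12 (adjusted p = 0.901).

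The 14 transporters tested had a median log2 fold change of -0.07, with 4 above control and 10 below. Of all genes tested, 2.12% passed the 1.8-fold threshold. Among the 10 genes and the 53 other pathway genes tested, only Slco1a4, an organic anion uptake transporter, passed it. It read 17.3 and 11.6 CPM in control mice and 24.4 and 28.5 CPM in the mice labelled HuRhKO, a log2 fold change of 0.88 (SE 0.203, adjusted p = 0.312 by edgeR), and it did not pass without mouse 4. Its relative Slco1a1, named after its values were seen, went the other way, from 437 and 299 CPM in control mice to 239 and 226 CPM (log2 fold change -0.66, SE 0.189, adjusted p = 0.448). Slc10a1 (NTCP), the main bile acid uptake transporter, stood at -0.04 (SE 0.145, adjusted p = 0.968) and Abcb11, the bile salt export pump, at -0.29 (SE 0.167, adjusted p = 0.734), both as log2 fold changes. Slc51a was at 0 counts in all 4 libraries.

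**Figure D4:**
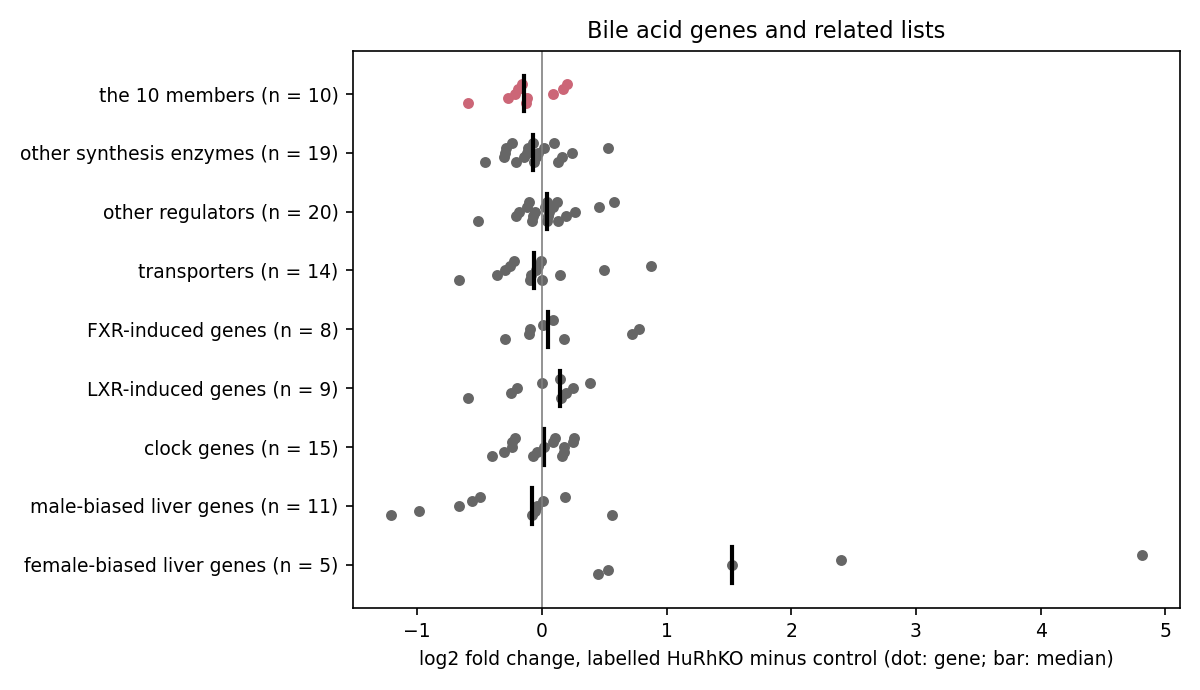
Log2 fold change, labelled HuRhKO minus control (x axis), of each tested gene of the 10 bile acid genes (red) and of 8 related lists (grey), with a black bar at each list's median. The bile acid genes lie between -0.59 and 0.20 and 7 of the 8 other lists straddle 0. On this scale, leaving out the scaling for library size moves the median of all genes to 0.31. The 5 female-biased genes tested, of 14 listed, lie above 0, and the filter on low counts left Cyp2a4 and Cyp2b13 no other direction.

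Genes induced by the same receptors stood on both sides of control. Of the 8 FXR-induced genes tested, Nr0b2 among them, 5 stood higher and 3 lower (median 0.05), and Apoc2, named after its values were seen, was the only gene of that list with an unadjusted p under 0.05 (log2 fold change 0.78, adjusted p = 0.587 by edgeR). Of the 9 LXR-induced genes, 6 stood higher and 3 lower (median 0.15), with Cyp7a1 itself the only 1 with an unadjusted p under 0.05, and the 1 with the highest CPM per kb, the desaturase Scd1, had a log2 fold change of -0.25 (SE 0.371, adjusted p = 0.910). Since bile acid synthesis follows the time of day, 15 clock genes were read as well, of which 8 stood higher and 7 lower and 0 had an unadjusted p under 0.05. The clock gene with the highest CPM per kb, Dbp, had a log2 fold change of 0.25 (95% interval -0.12 to 0.61, adjusted p = 0.768). The time of sampling was not given in the sources used here.

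Sex-biased liver genes are given beside these values, and all 4 mice are labelled male. Only 5 of the 14 female-biased genes listed were tested, and of these Cyp2a4, Cyp2b9 and Cyp2b13 passed the 1.8-fold threshold, with log2 fold changes of 4.82, 1.52 and 2.40 (adjusted p = 0.0636, 0.137 and 0.103 by edgeR). Of the 13001 genes tested, 2.12% passed that threshold, 157 higher and 119 lower. Cyp2a4 had 11 and 7 counts in control mice and 403 and 200 in the libraries labelled HuRhKO. It and Cyp2b13 reached the minimum count in both mice only in the libraries labelled HuRhKO, so the filter left these 2 genes no other direction than higher. Of the 11 male-biased genes, 8 stood lower and 3 higher (median -0.08), with C6 and Ugt2b38 past the threshold (log2 fold changes -0.99 and -1.21, adjusted p = 0.200 and 0.223). Slco1a1 is on this list too. Near-identical copies exist for the Cyp2a, Cyp2b and Ugt2b genes, so the split of reads among them is uncertain. The part of these genes in the bile acid results was not tested.

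No marker of a liver cell type had an adjusted p under 0.05 by edgeR's quasi-likelihood test, and without adjustment 2 stellate cell markers (Col1a1 and Col3a1, log2 fold changes 0.63 and 0.59) and 1 cholangiocyte marker (Spp1, 0.51) passed, all higher and all named after their values were seen. Among all genes tested, 4.04% had an unadjusted p under 0.05 on the higher side and 3.39% on the lower. These shares apply to the lists below as well. The summed level of the cholangiocyte markers was between 121 and 176 CPM. Krt19 stood apart in control mouse 1 with 162 counts against 5, 7 and 34 in mice 2, 3 and 4. The cell markers tested stood higher than control for 9 of 13 Kupffer cell and macrophage genes (summed 283 to 333 CPM), 10 of 12 stellate cell genes (337 to 427 CPM), 9 of 10 endothelial genes (272 to 350 CPM) and 4 of 8 cholangiocyte genes. Their median log2 fold changes were 0.14, 0.23, 0.21 and 0.04. Of 12 T, NK and B cell markers only 4 were tested, at 4 to 35 counts in a library, too few to give a direction. The marker of each type with the highest CPM per kb had a log2 fold change of 0.15 (C1qa, Kupffer cells), 0.03 (Ecm1, stellate cells), 0.24 (Clec4g, endothelium), 0.23 (Aqp1, cholangiocytes) and 0.04 (Alb, hepatocytes). Pericentral genes, which mark the zone where Cyp7a1 is usually found, stood higher for 6 of 11 and periportal genes for 8 of 10, with medians of 0.04 and 0.09. Glul and Lect2 among the pericentral genes (log2 fold changes 0.53 and 0.63) and Gls2, Sds and Hsd17b13 among the periportal genes (0.46, 0.44 and 0.38) had an unadjusted p under 0.05, all higher, with adjusted p-values from 0.490 to 0.618 by edgeR, and were named after their values were seen. Cyp2e1 and Ass1, the genes of the 2 lists with the highest CPM per kb, stood at -0.17 and 0.18 on the log2 fold change scale. Intestinal markers Alpi, Cdx2 and Fgf15 were at 0 in all 4 libraries, and of the 3 tested 2 stood higher, led by Fabp2 (0.36), and 1 lower, Lgals4 (log2 fold change -0.67, adjusted p = 0.490 by edgeR), the only 1 with an unadjusted p under 0.05 and named after its values were seen. The part of these cell types in the bile acid results was not tested.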

How the data were processed

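Total liver RNA of 4 mice was sequenced from libraries made by a commercial service. The authors deposited read counts per gene as whole numbers, without normalization, and the submitters' processing notes name RSEM and GRCm38 with no role, so the deposited counts may be rounded estimates. How reads that match several genes were shared, and any use of strand, is not given in the sources used here. All 4 value columns were matched to a mouse by name. Of 46603 identifiers, 46005 had a symbol. Coordinates and exon lengths came from GENCODE M21 (GRCm38).

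Counts were filtered with edgeR 4.0.16 (R 4.3.3; minimum count 10, total 15), scaled by TMM and compared with its quasi-likelihood test, adjusted by Benjamini-Hochberg over 13001 genes and tested on simulated data. The p-values and intervals rest on the spread between 2 mice a group, with 2 residual degrees of freedom. That spread was drawn for each gene towards the spread of all genes, which counted as 6.15 prior degrees of freedom. The common coefficient of variation was 0.146. Ratios within libraries were compared with exact permutation tests (scipy 1.17.1). Alternatives were DESeq2 1.42.0, limma 3.58.1 and others in the closing section. The genes and lists were chosen with earlier results of these data known. Named were the 10 genes, Elavl1, listed genes with an adjusted p under 0.05 or with a fold of at least 1.8 and an unadjusted p under 0.05, Cyp2c70, Slc10a1 and Abcb11, and the gene with the highest CPM per kb of a list with none of these. The 95% intervals are those of the fit. The motifs, the pentamer and the cell marker lists were read as descriptions, with no test.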

Additional observations from a re-analysis of the deposited data

How the results depend on the processing

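Of 130 fits of the 10 genes under 13 alternative settings, 118 kept their direction and their side of the threshold and 12 turned direction, and the lowest adjusted p of any of them was 0.115 (Cyp7a1 without the filter on low counts). Cyp7a1 stayed lower in all settings, with adjusted p-values from 0.115 to 0.799 and log2 fold changes from -0.83 to -0.38 when 1 mouse was left out. Without scaling for library size the median of all genes was 0.31, and the log2 fold changes of Cyp8b1 (0.18), Cyp27a1 (0.11), Cyp7b1 (0.052), Slc27a5 (0.20), Baat (0.17) and Nr1h4 (0.18) turned positive, all below that median. In that setting 9 of the 10 genes stood above control, 0 had an unadjusted p under 0.05, and 1 other synthesis enzyme and 1 other regulator passed the 1.8-fold threshold. Leaving out 1 mouse at a time gave -0.64 to 0.31 for Cyp8b1, -0.26 to 0.53 for Akr1d1, -0.30 to 0.074 for Nr1h4 and -0.35 to 0.45 for Nr0b2. It also gave 2 to 5 genes above control, with 5 without mouse 2, and 0 to 1 transporters past the threshold, with 0 without mouse 4. With 1 mouse left in a group, that mouse is assumed to vary like the others. Slco1a4 passed an adjusted p of 0.05 without scaling (0.00365), without the filter (0.0138) and by the edgeR exact test (0.0242). No paired analysis was possible because the groups share no mouse number. With 2 mice a group, the 95% intervals of Cyp7a1 and Cyp8b1 reached past a 1.8-fold change.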

Other observations

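Among the other regulators, Prox1, a hepatocyte factor that can hold back bile acid synthesis genes, was picked out after its values were seen. It read 67.7 and 128 CPM in control mice and 66.9 and 105 CPM in the mice labelled HuRhKO. Each group thus held a low and a high mouse, and the same mice were low and high for Cyp8b1. This was not particular to Prox1. The same mice were also low and high for other listed genes, such as Nr1i3 and Por, and the reverse held for Hnf4a. The 4 libraries are too few to rank genes by likeness, and no test was made.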
